A study of Mus musculus with 12 samples.

Results

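Pregnenolone carbonitrile (PCN) was compared with its vehicle in the uninjured mouse kidney, gene by gene. Of the 52636 genes in the deposited table of FPKM (fragments per kilobase of gene, scaled to library size), 12645 reached 1 FPKM in 3 or more of the 6 libraries and were tested, and 11245 of these were protein coding. The PCN group was made of male wild-type C57BL/6 mice aged 8 weeks that were given PCN at 40 mg/kg by gavage once a day and a saline injection. The Control group was made of mice of the same strain, sex and age that were given corn oil and saline. Dosing ran for 4 days before the injection and 3 days after it, and kidneys were taken on day 4 after the injection in both groups, so Control mice were gavaged too. The CISPCN and CIS groups, used here only for values set beside the main comparison, were given 20 mg/kg cisplatin, a platinum drug toxic to the tubule, with PCN and with corn oil. Each group had 3 libraries. Groups follow the library titles, because the dosing text places the cisplatin group under both PCN and oil and leaves the PCN group out of both.

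PCN is a synthetic steroid and a ligand of PXR, the pregnane X receptor of rodents (gene Nr1i2). PXR is a nuclear receptor that pairs with RXRα and binds response elements near genes for drug oxidation, conjugation and export. It is abundant in liver and intestine, where Cyp3a11 is its classical mouse target, and the kidney is not counted among its main sites. A gene was called when limma's moderated test on log2(FPKM + 1) gave a two-sided p under 0.05 after Benjamini-Hochberg adjustment over all 12645 genes. With 3 libraries on each side the smallest p of an exact permutation test is 0.1, so no such test was run on single genes. Genes whose 3 PCN values all lay above, or all below, the 3 Control values are described as apart. Nothing in the labels says that the libraries came from separate animals, so p-values speak only of the spread among the libraries, which may be technical.

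The 6 libraries held between 19099281 and 23582682 reads in genes. Pairs of PCN libraries differed by a root mean square of 0.20 to 0.26 on the log2(FPKM + 1) scale, pairs of Control libraries by 0.22 to 0.26, and PCN from Control libraries by 0.23 to 0.28, so distances between groups were close to those within them. The first principal component of the genes tested (31.2% of variance) did not separate the groups, while on the second (22.7%) the PCN libraries lay at −4.27, −9.17 and −8.81 and the Control libraries at 0.1, 10.9 and 11.2. PCN 1 and Control 1 had the highest sums of fat markers. The 18 adipocyte markers summed to 458, 130 and 134 FPKM in PCN 1, 2 and 3 and to 353, 140 and 151 FPKM in Control 1, 2 and 3. All 18 had reads in at least 1 library, and the defining marker Adipoq was at 11.8 FPKM in PCN 1 and 0.33 FPKM in PCN 2. The 8 red blood cell markers summed to 570, 462 and 364 FPKM in the PCN libraries and to 1218, 346 and 464 FPKM in the Control libraries, with Control 1 the highest. Markers of kidney tubule were present throughout: all 45 proximal tubule markers met the expression minimum, and their sum was 42322 to 46093 FPKM in the PCN group and 40374 to 44573 FPKM in the Control group.

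No gene was called higher (0.00%) or lower (0.00%) in the PCN group. The smallest adjusted p was 0.219 (limma, Benjamini-Hochberg), for the small nucleolar RNA Rnu73b, and 933 genes (7.38%) had an unadjusted p under 0.05, 405 with PCN higher (3.20%) and 528 with PCN lower (4.18%). When PCN and Control means were taken from a fit of all 12 libraries, 0 genes were called and 405 had an unadjusted p under 0.05. Limma-voom on reads recovered from the FPKM also called 0 genes, with 495 higher and 487 lower at an unadjusted p under 0.05. Differences of log2(FPKM + 1) were small, and their 95% interval had a median half-width of 0.17. It lay inside a 2-fold change of FPKM + 1 in either direction for 12284 genes (97.1%). The added 1 shrinks changes of low genes, so for them this does not bound the change in FPKM to 2-fold. Of the 7245 genes with a mean of at least 5 FPKM, 6882 had an interval inside a 1.5-fold change of FPKM + 1. Groups were apart with PCN higher for 770 genes (6.09%) and with PCN lower for 920 genes (7.28%). These shares are the background for every count of list members that follows, and none of the differences described passed the test.

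The receptor and its partner did not differ beyond the spread between libraries. Nr1i2 was at 2.50, 2.35 and 2.03 FPKM in PCN 1, 2 and 3, against 2.07, 2.61 and 2.80 FPKM in Control 1, 2 and 3. The ranges overlapped, and the log2 difference was −0.08 with a 95% interval of −0.32 to 0.16. Rxra, which encodes RXRα, was at 28.6, 30.4 and 28.9 FPKM in PCN kidneys and at 29.9, 32.4 and 29.6 FPKM in Control kidneys, with a log2 difference of −0.06.

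The classical Cyp3a, Cyp2b and Cyp2c targets were at the edge of detection in both groups. Of 42 listed PXR targets, 25 stayed under the expression minimum, none of them above 0.963 FPKM in any of the 6 libraries, and 5 (Cyp3a16, Cyp3a41a, Cyp3a44, Cyp2c39 and Sult1e1) had no read at all. Cyp3a11, which hydroxylates steroids and drugs, had 4, 0 and 37 reads in PCN 1, 2 and 3, against 0, 7 and 12 reads in Control 1, 2 and 3. PCN 2 and Control 1 had no read, and the 37 reads of PCN 3 corresponded to 0.336 FPKM. Cyp2b10, a P450 driven mainly by the related receptor CAR, had 2, 4 and 3 reads in PCN kidneys and 9, 0 and 7 in Control kidneys. Cyp3a13 had 17, 16 and 13 reads in PCN kidneys and 8, 16 and 12 in Control kidneys. At these counts a small difference between groups was not detectable. Other targets under the minimum had more reads: Abcc3, a basolateral export pump, had 84, 41 and 69 reads in PCN kidneys and 56, 60 and 80 in Control kidneys, and Slco1a4, an organic anion importer, had 56, 34 and 51 against 38, 42 and 52. Both overlapped between groups. Gsta1, a glutathione transferase, was at 0.640, 0.373 and 0.339 FPKM in PCN kidneys, against 0.727, 0.963 and 0.795 FPKM in Control kidneys, with PCN below Control in every library and 28 reads in all against 51.

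The 17 targets that met the minimum had a median log2 difference of −0.04, against −0.0024 over all genes tested. Of these, 2 were apart with PCN higher and 4 with PCN lower, beside backgrounds of 6.09% and 7.28%. The interval lay inside a 2-fold change of FPKM + 1 for 16, which is a looser bound in FPKM for targets near 1 FPKM. Abcc2, the apical pump for conjugated drugs, was at 45.6, 48.6 and 47.5 FPKM in PCN kidneys, against 45.1, 40.5 and 42.5 FPKM in Control kidneys. The lowest PCN library was just above the highest Control library, and the log2 difference was 0.14 (95% interval 0.01 to 0.27; limma, Benjamini-Hochberg adjusted p = 0.665). Ces2c, a carboxylesterase that cleaves ester drugs, was at 101.3, 101.7 and 99.6 FPKM in PCN kidneys and at 97.2, 90.5 and 74.4 FPKM in Control kidneys. Por, the electron donor of microsomal P450 enzymes, overlapped between groups at 101, 101 and 94.3 FPKM with PCN and 91.5, 99.7 and 89.8 FPKM without.

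Glutathione transferases, which couple electrophiles to glutathione, were lower rather than higher where the groups were apart. Gstm2 was at 21.5, 18.5 and 24.7 FPKM in PCN kidneys, against 26.7, 27.3 and 29.7 FPKM in Control kidneys. The groups did not overlap, with a log2 difference of −0.37 (95% interval −0.61 to −0.12). Of 18 family members tested, Gstm2, Gsta4, Gstp1 and Gsto1 were apart with PCN lower (22.2%, beside 7.28% of all genes). None was apart with PCN higher, and the family's median log2 difference was −0.14. Without Control 1, 10 of the 18 were apart with PCN lower, beside 15.0% of all genes, and the median was −0.0669 without Control 2. These genes have close paralogs among which reads can be split. Among 34 cytochrome P450 genes tested, 4 were apart with PCN higher (Cyp7b1, Cyp2j9, Cyp4a31 and Cyp4f17) and 3 with PCN lower (Cyp26b1, Cyp2d12 and Cyp2d26). The shares were 11.8% and 8.82%, beside 6.09% and 7.28% of all genes. Without Control 1 these counts were 6 and 9, beside 1387 and 1894 of the 12645 genes. Cyp7b1, an oxysterol hydroxylase, was at 103.1, 103.3 and 111.5 FPKM with PCN and at 90.5, 90.5 and 85.6 FPKM in Control kidneys, a log2 difference of 0.25. Of 31 ABC transporters, Abcc2, Abca8a, Abca9 and Abcb8 were apart with PCN higher (12.9%, beside 6.09%) and none with PCN lower (beside 7.28%). Without Control 1, 6 were apart with PCN higher and 2 with PCN lower, beside 1387 and 1894 of the 12645 genes. Without PCN 1, these counts were 8 and 1, beside 1517 and 1743. Under rescaling of the libraries the count of ABC transporters with PCN higher fell as low as 2, beside 6.22% to 7.09% of all genes. No member was apart among 13 UGT and SULT genes, 23 genes of cholesterol synthesis or 14 glucocorticoid-responsive genes. Over all genes tested, 13.4% were apart in either direction. Whether PCN, a steroid, acted on glucocorticoid-responsive genes was not tested.

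**Figure D1:**
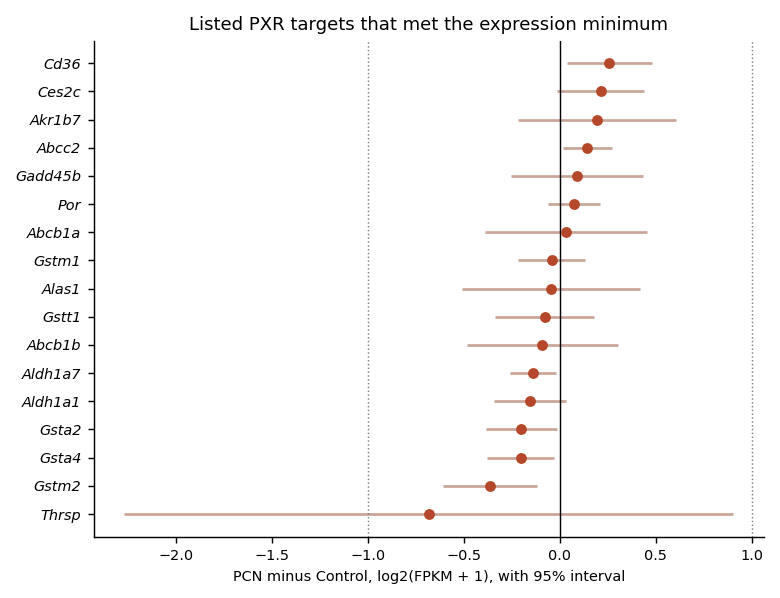
Log2(FPKM + 1) difference, PCN minus Control, with its 95% interval (horizontal axis) for the 17 listed PXR targets that met the expression minimum (rows). Dotted lines mark a 2-fold change of FPKM + 1, which is a larger change in FPKM for genes near 1 FPKM. Of the 17 intervals, 16 lie between these lines, and the widest interval is that of Thrsp.

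Among the lists with at least 5 tested members, those of protein folding and stress held the largest shares of genes apart with PCN lower. The lists were chosen with earlier results of these data known, so this ranking is a description. In the endoplasmic reticulum (ER), chaperones such as BiP (Hspa5) fold secreted and membrane proteins, and the unfolded protein response raises them through the factors ATF6 and XBP1, which act on the ER stress element. In the cytosol, HSF1 plays the matching part for the heat shock proteins through heat shock elements. To show the ER stress element, the 250 bases before the gene start of every gene in the RefSeq table (GRCm38.p6, 32851 windows) were searched on both strands for the letters CCAAT followed, after 9 bases of any kind, by CCACG. The element was found in 37 windows (0.113%), and in 8 of the 23 tested genes of the ER list with a window. It is shown in capitals, 5′ to 3′ on the gene's strand with 20 bases on either side, for 4 of the 5 ER genes that hold it and were apart with PCN lower.

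Creld2, chr15:88819500-88819558, plus strand: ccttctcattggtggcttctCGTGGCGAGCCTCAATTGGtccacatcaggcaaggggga

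Hspa5, chr2:34772005-34772063, plus strand: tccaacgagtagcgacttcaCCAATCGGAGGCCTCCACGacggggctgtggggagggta

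Calr, chr8:84847055-84847113, minus strand: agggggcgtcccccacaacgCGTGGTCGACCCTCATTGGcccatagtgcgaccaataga

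Syvn1, chr19:6046512-6046570, plus strand: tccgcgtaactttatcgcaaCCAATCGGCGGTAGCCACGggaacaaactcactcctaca

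In Hspa5 and Syvn1 the element reads forward, ending 46 and 25 bases before the gene start. In Creld2 and Calr it reads in reverse, ending 107 and 143 bases before it. Over the whole table, 14 tested genes held the element, with a median log2 difference of −0.25. Of these 14, 6 were apart with PCN lower and none with PCN higher, beside 7.28% and 6.09% of all genes. Among those apart, 5 were the ER genes already counted above. The 6 of these 14 genes outside the ER list had 1 member apart with PCN lower and a median of −0.18. A match is a run of letters, not a measured binding site.

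Creld2, an ER protein secreted under stress, was at 21.7, 23.0 and 20.6 FPKM in PCN kidneys, against 32.2, 30.7 and 29.8 FPKM in Control kidneys. Every PCN library was below every Control library by a margin wider than either group's range. The log2 difference was −0.49 (95% interval −0.62 to −0.35; limma, Benjamini-Hochberg adjusted p = 0.447). Hspa5, the main ER chaperone, was at 116, 112 and 104 FPKM with PCN and at 138, 149 and 152 FPKM in Control kidneys, again without overlap, and its log2 difference was −0.40 (95% interval −0.55 to −0.26). Pdia4, a disulfide isomerase, was at 40.3, 38.9 and 37.9 FPKM with PCN and at 49.2, 47.0 and 47.4 FPKM in Control kidneys. Manf, a secreted ER stress protein, was at 15.999, 15.6 and 14.1 FPKM with PCN and at 18.4, 22.1 and 23.0 FPKM in Control kidneys. Both were apart, with log2 differences of −0.29 and −0.45.

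Calr, a calcium-binding chaperone of glycoproteins, was at 188, 151 and 144 FPKM in PCN kidneys, against 219, 202 and 210 FPKM in Control kidneys. Sdf2l1, a BiP cofactor, was at 11.1, 6.80 and 6.93 FPKM in PCN kidneys, against 18.2, 12.3 and 14.9 FPKM in Control kidneys, with the largest log2 difference of the list at −0.82 (95% interval −1.30 to −0.33). In both genes PCN 1 was the highest of its group and Control 1 the highest of all. Of the 30 ER genes tested, 11 (36.7%) were apart with PCN lower, beside a background of 7.28%, and 26 had the lower mean in PCN kidneys, beside 50.9% of all genes. The other members apart and lower were Hyou1, Dnajb11, Syvn1, Canx and Derl2. Edem1, which marks misfolded glycoproteins for removal, was the single member apart and higher, at 22.3, 23.1 and 22.5 FPKM with PCN and 20.5, 20.6 and 22.2 FPKM without. The sensors Ern1, Eif2ak3 and Atf6 had log2 differences of −0.01, −0.01 and 0.02.

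The median log2 difference of the ER list was −0.12 and lay between −0.15 and −0.10 in every alternative tried. The count apart with PCN lower was 17 without Control 1 and 18 without PCN 1, beside 15.0% and 13.8% of all genes. Under rescaling of the libraries that count fell as low as 9, beside 6.29% to 7.23% of all genes. Without both libraries rich in fat markers, PCN 1 and Control 1, 22 of the 30 ER genes were apart with PCN lower, beside 22.4% of all genes in that smaller set.

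Cytosolic chaperones were lower alongside. Cryab and Hspb1 encode small heat shock proteins that hold unfolded proteins in solution. Cryab was at 61.2, 55.3 and 60.9 FPKM in PCN kidneys, against 82.5, 84.3 and 94.7 FPKM in Control kidneys, and Hspb1 was at 13.3, 11.8 and 14.0 FPKM, against 21.8, 19.6 and 19.2 FPKM. Neither gene overlapped between groups, and the log2 differences were −0.55 (95% interval −0.72 to −0.38) and −0.60 (95% interval −0.79 to −0.41), both with an adjusted p of 0.447 (limma, Benjamini-Hochberg). Hsph1, a nucleotide exchange factor for Hsp70, was at 21.9, 20.999 and 19.3 FPKM with PCN and at 32.1, 27.7 and 26.9 FPKM in Control kidneys. Hspa1b, an inducible Hsp70, was at 13.7, 13.0 and 12.7 FPKM with PCN and at 36.5, 21.6 and 21.2 FPKM in Control kidneys, so that Control 1 stood well above the rest. Its log2 difference was −0.91 with all 6 libraries and −0.67 without Control 1. Hspa1a, a near-identical copy, had a log2 difference of −0.68, and reads may be split between the copies.

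The letters GAANNTTC, a pair of heat shock half-sites, were in 2199 of the same windows (6.69%) and in 7 of the 17 listed heat shock genes with a window. They are in capitals in the stretches that follow, which show an inducible Hsp70 gene and a small heat shock protein gene that were apart with PCN lower; the Hspb1 stretch holds them at 2 places.

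Hspa1b, chr17:34959315-34959362, minus strand: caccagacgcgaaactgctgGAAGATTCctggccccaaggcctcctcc

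Hspb1, chr5:135887782-135887829, plus strand: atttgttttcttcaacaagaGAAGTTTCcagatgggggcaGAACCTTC

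The cytosolic heat shock list also holds mitochondrial chaperonin genes. Of its 21 genes tested, 11 (52.4%) were apart with PCN lower and none with PCN higher, beside backgrounds of 7.28% and 6.09%. Their median log2 difference was −0.22, and 19 had the lower mean in PCN kidneys. Without PCN 1, 18 of the 21 were apart with PCN lower, beside 13.8% of all genes. Under rescaling the count fell as low as 9, beside 6.29% to 7.23%. The exceptions to the lower mean were Hspd1, a mitochondrial chaperonin, and Hspb8, with log2 differences of 0.01 and 0.02. Across the table, the 541 tested genes outside the list with the same letters had a median log2 difference of −0.01. In these bulk libraries, fewer cells of a kind and less RNA per cell cannot be told apart.

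**Figure D2:**
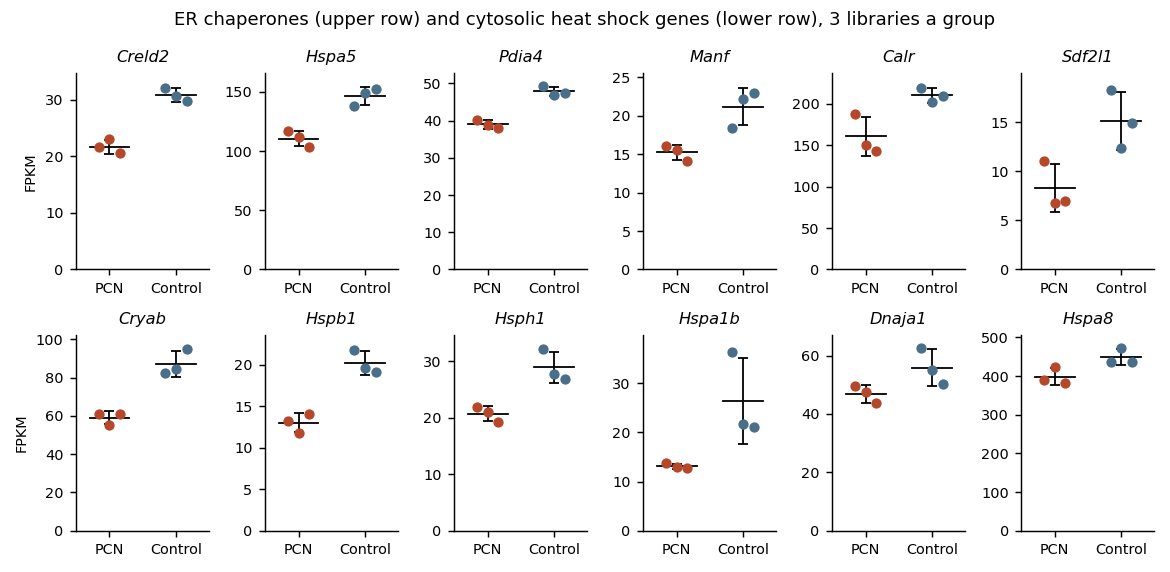
FPKM (vertical axes, from 0) of 6 ER chaperone genes (upper row) and 6 cytosolic heat shock genes (lower row) in the 3 PCN and the 3 Control libraries, each group in library order from left to right. Lines and bars are the mean and SD. Only members apart with PCN lower are drawn (11 of 30 ER and 11 of 21 heat shock genes were). In every panel all 3 PCN points therefore lie below all 3 Control points.

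Genes of the integrated stress response, which raises amino acid supply through ATF4, were lower in part. Atf4 was at 45.2, 48.9 and 42.5 FPKM in PCN kidneys, against 54.9, 57.1 and 55.6 FPKM in Control kidneys. Psat1, an enzyme of serine synthesis, was at 7.85, 7.79 and 7.08 FPKM with PCN and at 10.9, 9.57 and 11.1 FPKM in Control kidneys. Neither overlapped, and the log2 differences were −0.29 and −0.42. Of 12 genes tested, these and Slc3a2, Gdf15 and Ddit3 were apart with PCN lower (41.7%, beside 7.28%), and none was apart with PCN higher. Under rescaling the count lower fell as low as 3, beside 6.29% to 7.23% of all genes. Without PCN 1 and Control 1 together, 2 were apart with PCN higher and 6 with PCN lower, beside 18.2% and 22.4%. Asns, also a target of ATF4, had the highest mean difference of the list, 0.27, with PCN 3 at 2.40 FPKM and the other PCN libraries at 1.29 and 1.23 FPKM.

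**Figure D3:**
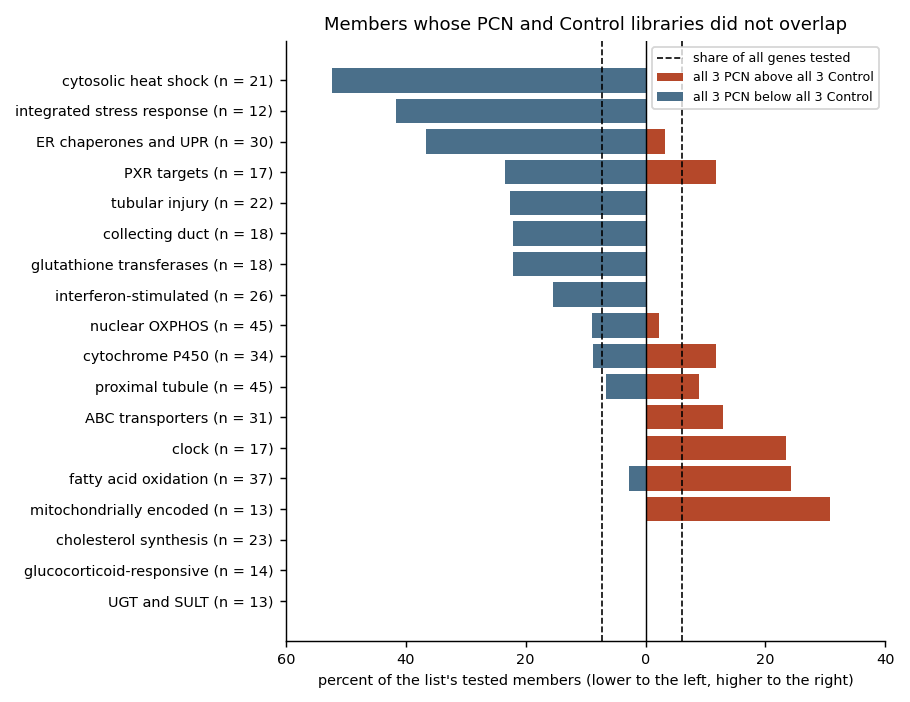
Share of each list's tested members (rows, n in brackets) whose 3 PCN libraries all lay below (left) or above (right) the 3 Control libraries, in percent. Dashed lines mark the same shares over all genes tested, 7.28% and 6.09%; the bars for cytosolic heat shock (52.4%), integrated stress response (41.7%) and ER chaperones (36.7%) extend farthest to the left.

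Interferon-stimulated genes, which encode antiviral proteins, had the lowest median of the lists with at least 5 tested members, and Control 1 differed from the other Control libraries in them. Isg15, a ubiquitin-like modifier, was at 8.21, 7.14 and 5.94 FPKM in PCN kidneys, against 8.13, 31.0 and 28.5 FPKM in Control kidneys. Control 1 lay within the PCN range, while Control 2 and 3 were more than 3 times the highest PCN library. Bst2, or tetherin, was at 31.3, 28.3 and 24.2 FPKM with PCN and at 32.4, 86.4 and 53.4 FPKM in Control kidneys, so the groups were apart by a narrow margin. All 26 genes tested had the lower mean in PCN kidneys, with a median log2 difference of −0.59 (−0.93 without Control 1 and −0.29 without Control 2), yet 4 (15.4%, beside 7.28%) were apart: Ifit3, Bst2, Oasl2 and Gbp2. Centred on each gene's mean, the list's median was −0.24, −0.25 and −0.37 in PCN 1, 2 and 3 and −0.31, 0.79 and 0.36 in Control 1, 2 and 3 on the log2(FPKM + 1) scale.

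Without Control 1, 5 genes were called lower in PCN kidneys: Isg15, Ifit1, Ifit3b, Oasl2 and Hspa1b, named here because they make up the count. Their log2 differences were then −1.93, −1.81, −0.94, −1.05 and −0.67, with adjusted p from 0.0456 to 0.0467 (limma, Benjamini-Hochberg). In that set 25 of the 26 interferon-stimulated genes were apart with PCN lower, beside 15.0% of all genes. With cisplatin the list ran the other way: its median log2 difference was 0.49 for CISPCN against CIS, which share no library with the main comparison, and 14 of the 26 genes were apart with CISPCN higher, beside 15.6% of all genes. The test of the difference between these effects called none of the 26.

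**Figure D4:**
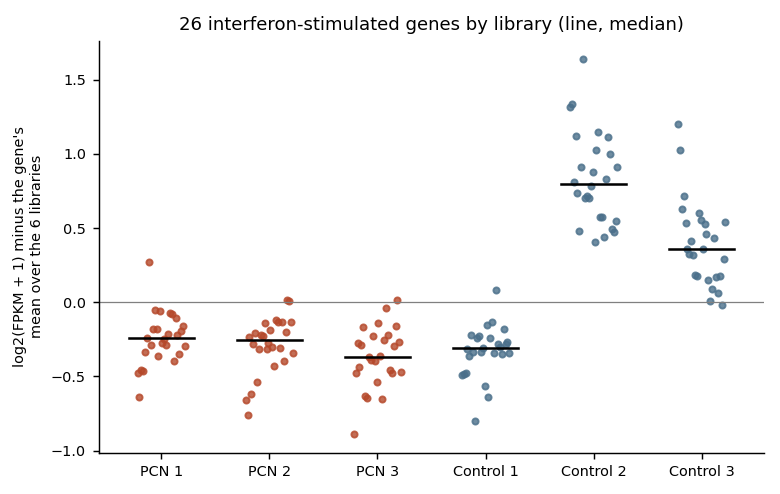
Log2(FPKM + 1) of 26 interferon-stimulated genes (points), each minus its mean over the 6 libraries (vertical axis), in the PCN and Control libraries (horizontal axis), with the median as a line. The medians of all PCN libraries and of Control 1 lie between −0.37 and −0.24, and those of Control 2 and 3 at 0.79 and 0.36.

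Fatty acid oxidation had the largest number of members apart and higher with PCN, although by share the mitochondrially encoded list was above it (30.8%), and none passed the test. Acot12, an acyl-CoA thioesterase, was at 62.0, 61.8 and 54.3 FPKM in PCN kidneys, against 48.6, 49.6 and 46.2 FPKM in Control kidneys. Ehhadh, the bifunctional enzyme of peroxisomal oxidation, was at 304, 268 and 290 FPKM with PCN and at 261, 244 and 207 FPKM in Control kidneys. Both were apart, with log2 differences of 0.30 (95% interval 0.14 to 0.45) and 0.28 (95% interval 0.05 to 0.50). Of 37 genes tested, 9 (24.3%, beside 6.09%) were apart with PCN higher, among them Acot2, Acot3 and Acadl, and 30 had the higher mean, beside 49.1% of all genes; Acaa2 was the single gene apart and lower. The list's median log2 difference was 0.14, or 0.0786 without Control 3; 17 were apart with PCN higher without PCN 1, beside 1517 of the 12645 genes, and 14 without Control 1, beside 1387. Ppara itself, the receptor that drives this pathway, overlapped between groups at 16.03, 22.3 and 19.1 FPKM with PCN and 15.5, 18.7 and 20.3 FPKM without. Cyp4a12a had the largest difference of the list, 1.29, or 0.59 without PCN 1: it was at 80.6, 12.3 and 26.1 FPKM in PCN kidneys, against 9.95, 14.6 and 10.7 FPKM in Control kidneys.

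The mitochondrially encoded mRNAs were slightly higher and the mitochondrial ribosomal RNAs lower. mt-Nd3, a complex I subunit, was at 287, 279 and 296 FPKM in PCN kidneys, against 190, 180 and 251 FPKM in Control kidneys. The mitochondrial ribosomal RNA mt-Rnr1 was at 583, 546 and 580 FPKM with PCN and at 729, 661 and 702 FPKM in Control kidneys. Neither overlapped, and the log2 differences were 0.49 and −0.29. All 13 mRNAs had the higher mean with PCN, or 10 of 13 after quantile normalization. With PCN higher, 4 were apart (30.8%, beside 6.09% of all genes): mt-Nd3, mt-Nd6, mt-Nd4 and mt-Cytb. Under quantile normalization, mt-Nd4 turned to −0.01 and 1 of the 13 was apart. Without Control 1, 10 of the 13 were apart with PCN higher, beside 1387 of the 12645 genes. Without PCN 1, 8 were, beside 1517 of all genes. The share of reads in mitochondrially encoded mRNAs overlapped between groups. It was 9.34%, 9.53% and 9.85% in PCN 1, 2 and 3, against 9.49%, 8.57% and 8.93% in Control 1, 2 and 3. Whether counting used the strand is not stated, and mt-Nd6 lies opposite other mitochondrial genes. Among 45 nuclear genes of oxidative phosphorylation 1 was apart and higher and 4 apart and lower, with a median of −0.05. The shares were 2.22% and 8.89%, beside 6.09% and 7.28% of all genes.

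In the clock list, Dbp, Tef, Per3 and Cry2 were apart with PCN higher (4 of 17, or 23.5%, beside 6.09% of all genes). The list's median log2 difference was 0.10, and 0.0086 to 0.16 when each library was left out in turn. Dbp, an output gene whose level follows the hour of the day, was at 34.5, 35.3 and 37.5 FPKM in PCN kidneys, against 29.1, 32.0 and 31.5 FPKM in Control kidneys.

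Of 22 tubular injury genes tested, 5 were apart with PCN lower (22.7%, beside 7.28%) and none with PCN higher. They were Krt18, Krt19, Krt7 and Krt8, keratins of simple epithelium, and Anxa3. Without PCN 1 the count was 9, beside 13.8% of all genes. Krt18 was at 10.7, 9.79 and 10.3 FPKM in PCN kidneys, against 15.9, 13.7 and 17.5 FPKM in Control kidneys, a log2 difference of −0.56 (95% interval −0.77 to −0.35). The injury marker KIM-1 (Havcr1) stayed under the minimum and ran the other way, with 47, 44 and 41 reads in PCN kidneys and 35, 27 and 25 reads in Control kidneys.

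Genes of nephron segments had median log2 differences of 0.02 over 45 proximal tubule genes, −0.03 over 14 genes of the thick ascending limb and −0.05 over 18 genes of the collecting duct. In the collecting duct list 4 of the 18 were apart with PCN lower (22.2%, beside 7.28%) and none with PCN higher. Aqp2, the vasopressin-regulated water channel of the collecting duct, was at 219, 254 and 223 FPKM in PCN kidneys, against 275, 342 and 369 FPKM in Control kidneys. The groups did not overlap, and the log2 difference was −0.49 (95% interval −0.77 to −0.22; limma, Benjamini-Hochberg adjusted p = 0.605). Gata3, Atp6v0d2 and Slc4a1 were also apart and lower, while Aqp3, the basolateral channel of the same cells, was at 69.3, 76.3 and 72.6 FPKM with PCN and 61.6, 81.3 and 73.4 FPKM without.

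Other genes were named for the smallest p or the largest change among those apart, which makes their direction a description. Tst and Mpst are neighbouring genes for enzymes that handle cyanide and hydrogen sulfide. Tst was at 91.6, 89.3 and 93.2 FPKM in PCN kidneys, against 78.1, 70.2 and 73.8 FPKM in Control kidneys, and Mpst at 72.2, 68.4 and 69.9 FPKM, against 58.2, 61.4 and 59.5 FPKM. Their log2 differences were 0.30 and 0.23. Nlrp6, an innate immune sensor, was tight in both groups, at 23.7, 23.8 and 23.9 FPKM with PCN and 20.3, 20.3 and 20.6 FPKM in Control kidneys. Igfbp1, a secreted binder of insulin-like growth factors, was at 3.181, 3.64 and 5.52 FPKM with PCN and at 1.58, 1.98 and 2.20 FPKM in Control kidneys, a log2 difference of 0.79 (95% interval 0.38 to 1.20).

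On the lower side, Psca was at 13.3, 10.2 and 14.1 FPKM in PCN kidneys, against 22.4, 16.4 and 27.3 FPKM in Control kidneys, so the groups did not overlap. Tyrobp, a signalling adaptor of myeloid cells, was at 8.06, 8.55 and 7.42 FPKM with PCN and at 10.7, 10.4 and 11.3 FPKM in Control kidneys, and S100a9, a neutrophil gene, at 1.09, 0.585 and 0.443 FPKM, against 1.33, 1.34 and 2.23 FPKM. The macrophage markers summed to 237 to 274 FPKM in PCN libraries and 265 to 351 FPKM in Control libraries, and the 14 neutrophil markers, 3 of them without a read, summed to 1.47 to 2.51 FPKM in PCN libraries and 3.27 to 4.67 FPKM in Control libraries. Adgre1, the macrophage marker F4/80, was apart and higher with PCN, at 2.07, 2.39 and 1.60 FPKM, against 1.45, 1.49 and 1.34 FPKM in Control kidneys. The part of these cells in the other differences was not tested.

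With cisplatin the medians of the chaperone lists were nearer 0. For CISPCN against CIS the median log2 difference was 0.04 over the ER list and 0.01 over the heat shock list, beside −0.12 and −0.22 for PCN against Control. The tested difference between the effects called no member of either list. Over all genes, the PCN effect with cisplatin differed from that without for 13 genes (0.103%), of which 4 were apart between PCN and Control; this count ranged from 0, without Control 1 or without CISPCN 3, to 439 without CISPCN 2 and 1063 without CIS 2. Eif4ebp1, an ATF4 target that restrains translation, was at 7.86, 7.28 and 8.91 FPKM in PCN kidneys, against 7.52, 7.33 and 8.08 FPKM in Control kidneys. With cisplatin it was at 20.0, 24.1 and 21.9 FPKM in CISPCN kidneys, against 49.0, 41.2 and 48.8 FPKM in CIS kidneys. The difference between the effects was −1.10 on the log2 scale (limma, Benjamini-Hochberg adjusted p = 0.0110).

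**Figure D5:**
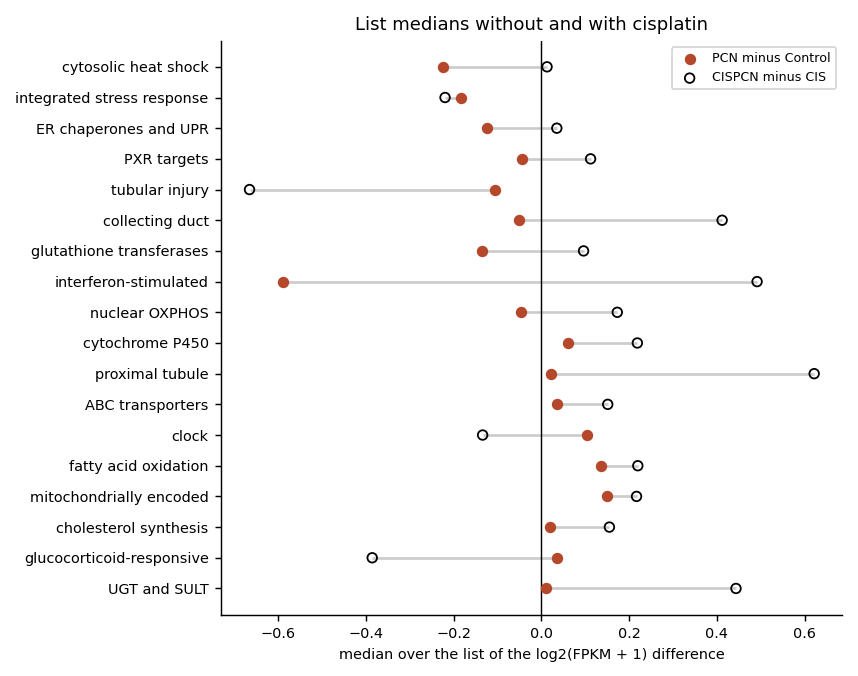
Median log2(FPKM + 1) difference (horizontal axis) over the tested members of each list (rows) for PCN minus Control (filled) and CISPCN minus CIS (open). Filled points lie between −0.59 and 0.15; the interferon-stimulated list is at 0.49 with cisplatin, against −0.59 without it.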

How the data were processed

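Kidney RNA was measured in 12 libraries, 6 of them used for the main comparison. The values are FPKM per gene in a table the authors deposited. HISAT2 2.0.5, featureCounts 1.5.0-p3, DESeq2 1.16.1 and edgeR 3.18.1 are the tools named, with no settings, per the submitters' processing notes. These notes name build mm8, but GENCODE release M21 (GRCm38) holds 52489 of the 52636 identifiers, 95.2% of them at identical coordinates, and positions are read as GRCm38. Reads printed here were recovered as FPKM times length, divided by the step that 1 read makes in that library; 100% of nonzero values were whole within 0.001. They were used only for low counts and for limma-voom, as an alternative.

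Tests used limma 3.58.1 (R 4.3.3) on log2(FPKM + 1), with the prior variance following mean expression. This scale understates changes of low genes. The 6 libraries of both groups were fitted without the cisplatin libraries, whose median residual SD was 0.145 against 0.0859. The difference of effects used all 12. Intervals are 95%. Replicates of a group differed by more than sampling noise, so each library counted once. The procedure was tested on simulated data. Genes were named by a rule: a fixed panel, up to 10 in each direction by p and by size among protein-coding genes apart, and up to 4 per list and direction; the text names some of these, and other list members. A gene that met the rule is not reported here. The 41 lists, the members and the tests were chosen with earlier results of these data known.

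Results were recomputed with pseudocounts of 0.1 and 0.5, without the expression minimum, with a minimum mean of 5 FPKM, with median-of-ratios, quantile and partial-sum rescaling (without the 50 highest and the mitochondrial genes), in a fit of all 12 libraries, with array weights, with a replicate block, by limma-voom, and without each library. Counts of genes apart without PCN 1 and Control 1 were added after seeing the data.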

Additional observations from a re-analysis of the deposited data

Results flagged for a closer look

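Differences of the PCN effect between kidneys with and without cisplatin led to 3 named genes being listed here, each by the test of the difference itself. Plin2, a coat protein of lipid droplets, was at 29.0, 26.6 and 28.3 FPKM in PCN kidneys, against 25.6, 27.6 and 23.0 FPKM in Control kidneys. With cisplatin it was at 258, 256 and 262 FPKM in CISPCN kidneys, against 713, 502 and 573 FPKM in CIS kidneys, and the difference of the effects was −1.32 on the log2 scale (limma, Benjamini-Hochberg adjusted p = 0.0108). Slc4a1, an anion exchanger of red cells and of acid-secreting collecting duct cells, was at 8.999, 10.4 and 10.3 FPKM in PCN kidneys, against 10.6, 12.02 and 10.6 FPKM in Control kidneys. With cisplatin it was at 2.67, 3.26 and 3.92 FPKM in CISPCN kidneys, against 1.01, 1.43 and 1.04 FPKM in CIS kidneys, a difference of the effects of 1.13 (limma, Benjamini-Hochberg adjusted p = 0.0292). Eif4ebp1 had a difference of −1.10, with the values given above. All 3 lost the call without Control 1 or without CISPCN 3, Eif4ebp1 also without Control 2, and Slc4a1 in 10 alternatives in all. The red cell markers were highest in Control 1, and their part in the Slc4a1 value was not tested.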

How the results depend on the processing

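No gene was called higher in PCN kidneys under any of the 18 alternatives. The count called lower was 0 in the main analysis, 0 to 5 when each library was left out in turn (5 without Control 1), and 1, Isg15, without PCN 1 and Control 1 together. The count of genes whose PCN effect differed with cisplatin was 13, 0 to 1063 when each library was left out, 20 after rescaling without the highest and mitochondrial genes, 31 with limma-voom and 4122 with array weights, so it is not stable, for the named genes either; the cause was not tested.

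With the replicate number as a block, 0 genes were called higher, 0 lower and 12 for the difference of effects, of which 9 were among the 13. Same-numbered libraries correlated in their deviations at 0.25, 0.17 and 0.02, and not every library correlated best with its own number, so the numbers are not taken to pair the libraries.

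Of 93 genes named, 79 kept their direction and stayed uncalled throughout. Differences near 0 turned sign for 9. Leaving out libraries gave −0.087 to 0.11 for Aqp3, −0.0136 to 0.051 for Atf6, −0.0409 to 0.0077 for Eif2ak3, −0.012 to 0.12 for Eif4ebp1, −0.0427 to 0.0232 for Ern1, −0.0362 to 0.076 for Hspb8, −0.0401 to 0.0656 for Hspd1 and −0.0439 to 0.18 for Ppara. Without PCN 1 and Control 1 together, Aqp3 was at −0.0528, Atf6 at −0.0147 and Ern1 at 0.0097. Aqp3 was at −0.0172 with array weights, and quantile normalization gave −0.0019 for Hspd1 and −0.0099 for mt-Nd4. The PXR target median ranged from −0.16 without Control 1 to 0.02 without Control 2. The Cyp3a and Cyp2b genes rest on few reads, so only large differences would be detectable there.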
